A study of Mus musculus with 5 samples.

Results

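The mitochondrial ribosomal protein genes were described here in the mouse hippocampal line HT22 after knock-down (KD) of the long non-coding RNA GAS5. They were taken as the protein-coding genes of the counts table whose symbol starts with Mrpl or Mrps followed by a number, without pseudogenes, and with at least 10 counts summed over the 5 libraries. Of the 55487 genes in the table, 78 had such a symbol and 77 passed the count minimum, 48 with the symbol of the large subunit (Mrpl) and 29 with that of the small subunit (Mrps). Large and small subunit below follow the symbol, which does not name the subunit of every protein. Mrpl53 had 0 counts in every library and was left out. Each of the 77 genes passed the filter on low counts of both comparisons below, with 220 to 9999 counts in single libraries.

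Cells were transfected for 48 h at a siRNA dose of 10 nM, and mRNA purified with oligo-dT beads was sequenced. The groups were GAS5 siRNA210 (1 library), GAS5 siRNA596 (2 libraries) and negative control siRNA, NC (2 libraries). The GEO labels call the NC cells untreated while their titles and the study's methods give NC siRNA. Nothing in the labels says whether the 2 libraries of a group came from separate cultures. *P*-values thus measure only the spread between these libraries, which may be technical. In the comparisons of KD with NC, libraries of both siRNAs were joined as KD, so the KD spread also holds any difference between the siRNAs.

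Mitochondria carry their own ribosome, which translates only the mRNAs encoded in mitochondrial DNA, the membrane subunits of the respiratory chain and of ATP synthase. Its rRNAs, mt-Rnr1 of the small and mt-Rnr2 of the large subunit, are made inside the organelle, whereas every protein of it is encoded in the nucleus, translated in the cytosol and imported. Part of these proteins have homologs in bacterial ribosomes, and the others were acquired in the mitochondrial lineage. Proliferating cells and neurons both depend on this ribosome for respiration. In these bulk libraries, fewer cells of a type and less RNA per cell cannot be told apart.

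The library labelled siRNA596 replicate 2 stood apart and went against its label, and values are therefore given without it (4 libraries) and with it (5 libraries). Gas5 was at 90.4 and 76.0 CPM (read counts scaled to the library total with TMM factors of all 5 libraries) in the NC libraries, 59.7 with siRNA210 and 65.9 and 179 with siRNA596. Its level was thus 71.7% and 79.2% of the NC mean in the siRNA210 library and in siRNA596 replicate 1, but 215% in the library labelled siRNA596 replicate 2. Without that library its log2 fold change in KD was -0.41 ± 0.11 SE, with an unadjusted *P* of 0.00377 and an adjusted *P* of 0.967 over all genes (edgeR). The mean normalized signal deposited by the authors for KD and NC was matched within 0.0977% when that library was left out, and differed by 345% or more in some gene under every other choice. Between pairs of the other 4 libraries, the mean chi-square per gene was 4.97 to 7.86 among NC replicate 1, siRNA210 and siRNA596 replicate 1, and 26.2 to 35.3 with NC replicate 2, so no library was a copy of another. Total counts were 30660265 to 36492134, and these genes took 0.3002% to 0.311% of the counts in those 4 libraries. Of the 6 neuronal markers, 3 had 3 counts or fewer in every library (Rbfox3, Nefl and Snap25), and the 6 summed to 51.0 to 102 CPM. The 4 fibroblast markers summed to 3833 to 5248 CPM, those of astrocytes to 25.05 to 50.4, of oligodendrocytes to 1.67 to 3.24 and of microglia to 1.14 to 2.16. The fibroblast sum was mostly Col1a1 (2976 to 4416 CPM) and Col1a2 (710 to 1180 CPM). Pdgfra was at 15.6 to 44.7 CPM, and Thy1 had 0 to 8 counts. The cells labelled as neuronal thus lacked 3 defining markers of mature neurons, and Syp had only 4 to 15 counts, while Tubb3 and Map2 were present. The neuronal sum was lowest in the library labelled siRNA596 replicate 2. There Map2 was at 31.5 CPM against 69.0 and 87.0 in NC. Tubb3, at 18.8 CPM, lay between its NC values of 25.3 and 14.9.

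The genes lie on 17 chromosomes, and 33 of the 77 start within 1000 bases of another coding gene that runs the other way. Promoter windows of 300 bases, from 250 before to 50 after the start, were taken from RefSeq (GRCm38.p6) and matched by symbol for 68 of the 77 genes. Of these, 46 started within 50 bases and 56 within 250 bases of the annotated start of the gene. The others lay farther away, up to 17016 bases for Mrpl33. Short motifs were searched on both strands. The letters CCGGAAG, the core bound by ETS factors such as GABPA, an activator of nuclear genes for mitochondria, were in 23 of the 68 windows (33.8%), against 18.4% of 9944 windows of genes tested here and 8.86% of all 32851 windows. The letters GCGCATG, part of the site of NRF1, another regulator of such genes, were in 8 of the 68 windows (11.8%), against 7.12% and 3.91%. AAGATGG, a form of the YY1 site, was in 13 (19.1%), against 7.33% and 6.34%, and TATAAA was in 4 (5.88%), against 6.87% and 13.6%. No match of 1 motif overlapped a match of another in these windows. Large and small subunit genes held the ETS letters in 13 of 42 and 10 of 26 windows, the YY1 letters in 7 and 6, and the NRF1 letters in 7 and 1. A match describes letters in the window and does not show that a factor binds there.

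Windows of 5 genes are shown 5′ to 3′ on the strand of the gene, with the ETS, NRF1 and YY1 letters in capitals. They were chosen as a decoding center protein, a tunnel exit protein with both an ETS and an NRF1 match, the gene with the smallest *P* in 5 libraries, the small subunit gene with the highest level, and a gene that starts head to head with another member.
Mrps12 (chr7:28741772-28742071, minus strand, ETS and reverse YY1 letters): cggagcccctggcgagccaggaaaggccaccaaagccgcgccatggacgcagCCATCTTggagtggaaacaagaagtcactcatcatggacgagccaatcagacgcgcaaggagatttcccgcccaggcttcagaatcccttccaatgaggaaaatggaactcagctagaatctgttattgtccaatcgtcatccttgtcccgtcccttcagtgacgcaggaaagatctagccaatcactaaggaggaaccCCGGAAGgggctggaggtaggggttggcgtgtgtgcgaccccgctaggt
Mrpl22 (chr11:58171414-58171713, plus strand, ETS and NRF1 letters): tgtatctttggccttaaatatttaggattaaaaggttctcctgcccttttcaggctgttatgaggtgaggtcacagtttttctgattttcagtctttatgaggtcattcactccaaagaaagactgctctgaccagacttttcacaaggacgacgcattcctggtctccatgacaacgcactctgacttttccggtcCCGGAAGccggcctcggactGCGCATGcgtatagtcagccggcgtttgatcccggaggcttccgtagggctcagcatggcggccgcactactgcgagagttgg
Mrpl34 (chr8:71464676-71464975, plus strand, ETS letters): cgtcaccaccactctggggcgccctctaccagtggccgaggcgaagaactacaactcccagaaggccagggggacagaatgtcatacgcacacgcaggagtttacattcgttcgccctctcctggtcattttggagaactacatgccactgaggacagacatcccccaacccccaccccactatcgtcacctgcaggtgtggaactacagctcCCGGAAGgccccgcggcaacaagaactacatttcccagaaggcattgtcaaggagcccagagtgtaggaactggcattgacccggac
Mrps21 (chr3:95871465-95871764, minus strand, reverse ETS letters): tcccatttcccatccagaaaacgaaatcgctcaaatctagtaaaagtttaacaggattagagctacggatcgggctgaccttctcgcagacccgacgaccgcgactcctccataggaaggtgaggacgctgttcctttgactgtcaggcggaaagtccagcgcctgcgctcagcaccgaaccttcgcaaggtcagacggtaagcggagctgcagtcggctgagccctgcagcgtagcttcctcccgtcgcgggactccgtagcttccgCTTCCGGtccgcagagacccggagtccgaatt
Mrpl46 (chr7:78783040-78783339, minus strand, none of these letters): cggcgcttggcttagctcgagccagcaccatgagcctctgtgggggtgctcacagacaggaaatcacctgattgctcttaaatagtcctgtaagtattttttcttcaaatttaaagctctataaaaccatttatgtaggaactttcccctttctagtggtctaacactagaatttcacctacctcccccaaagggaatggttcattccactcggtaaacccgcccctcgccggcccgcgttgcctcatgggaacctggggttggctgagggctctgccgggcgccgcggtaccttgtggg
The window of Mrpl46 shares 141 bases with that of Mrps11, a small subunit gene on the other strand, and their RefSeq starts are 42 bases apart. The RefSeq start of Mrpl46 used here lies 442 bases from the annotated start of the gene. In the 4 other windows the ETS letters stood between positions -53 and 24 relative to the start.

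Levels were compared between genes per length, as CPM per kb of the median annotated coding transcript. In the NC libraries the mean level ran from 4.26 to 114 CPM per kb, a 26.7-fold range, with a median of 26.2. The medians were 27.8 for the large and 24.96 for the small subunit. The highest large subunit genes were Mrpl28 at 114 ± 9.32 CPM per kb (mean ± SD, n = 2), Mrpl14, a protein at the subunit interface, at 110 ± 17.4, Mrpl20 at 106 ± 8.44 and Mrpl54 at 96.7 ± 7.85. Each of these genes overlapped the next in this order. The highest small subunit genes were Mrps21 at 94.4 ± 0.0674 CPM per kb, followed by Mrps17 at 46.9 ± 0.559, Mrps18a at 46.4 ± 6.36 and Mrps15 at 45.0 ± 2.99. Mrps21 lay apart from the other 3, which overlapped. The lowest levels were those of Mrpl47 (4.26 ± 0.610), Mrpl19 (4.89 ± 0.527) and Mrpl1 (6.48 ± 0.229) in the large subunit, and of Mrps25 (5.02 ± 0.721), Mrps30 (6.31 ± 0.109) and Mrps35 (7.07 ± 0.447) in the small subunit. The order depends on which transcript is counted, since the rank correlation between levels per coding transcript length and per length of all exons was 0.713 over the 77 genes, which share the same libraries. In addition, 9 genes shared over 20% of their exonic bases with another gene, among the named genes Mrps25 (69.8%, with Nr2c2), Mrpl19 (36.0%, with Gcfc2), Mrps18b (30.5%), Mrpl24 (26.3%, with Rrnad1), Mrpl47 (24.2%) and Mrps18c (23.2%), and 22.4% of the 50-base words of Mrpl22 occur in other genes, among them a pseudogene. How the counting treated such reads and the strand is not given in the sources used here, and the values of these genes are uncertain to that extent.

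**Figure D1:**
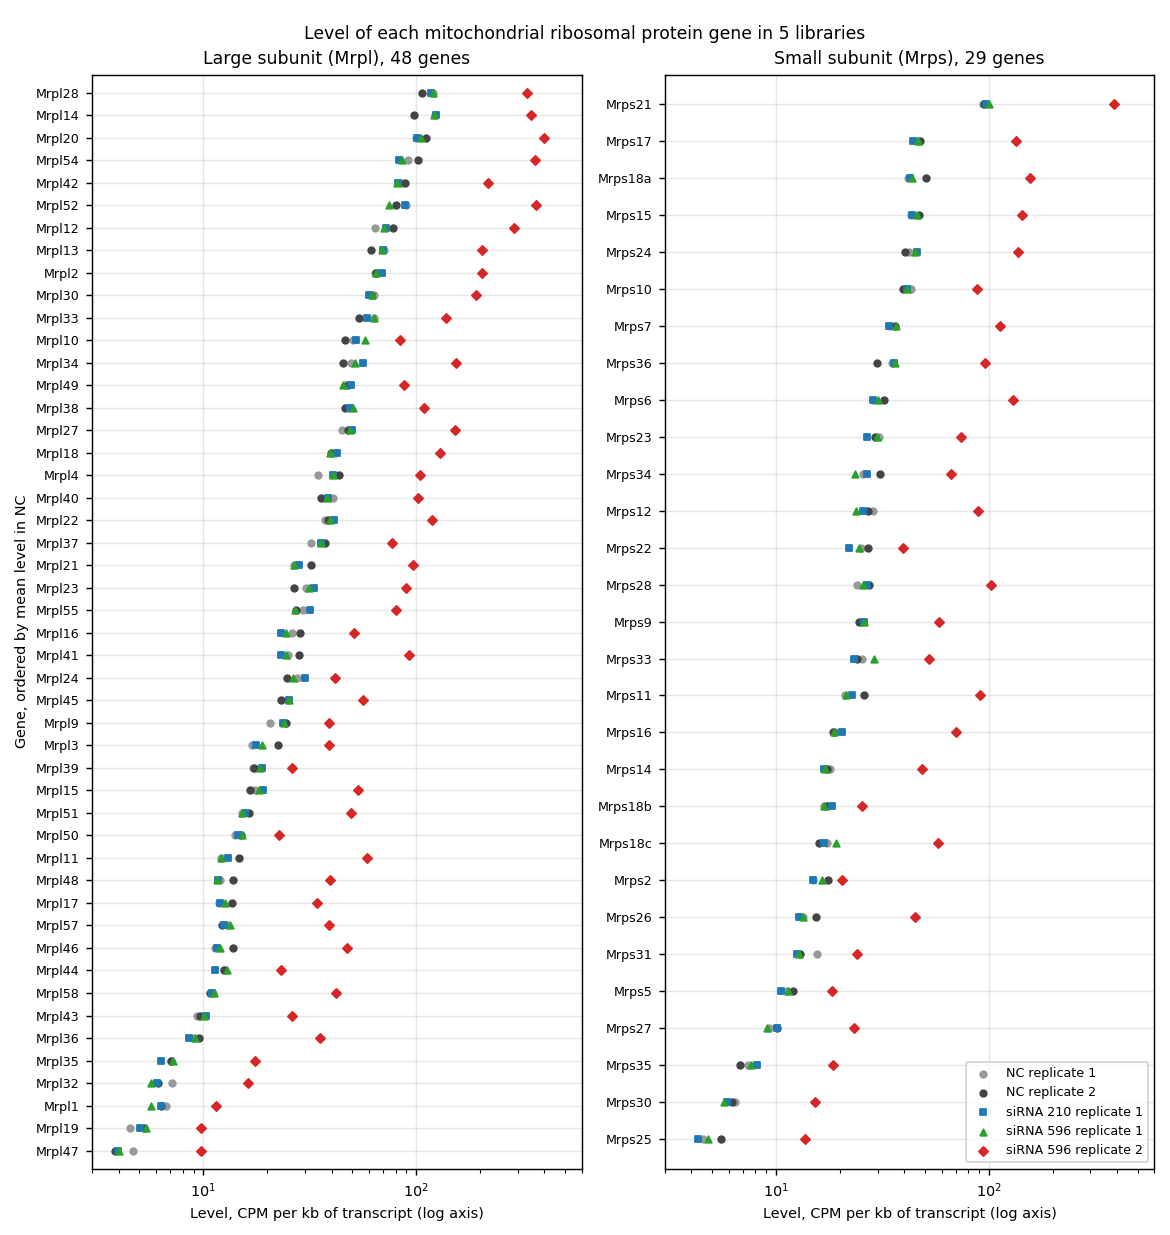
Level of each of the 77 genes in the 5 libraries, in CPM per kb of transcript on a log axis, with genes ordered by the mean of the 2 NC libraries and the large (left) and small (right) subunit apart. The points of 4 libraries lie close together from 4.26 to 114 CPM per kb, and the red diamonds of the library labelled siRNA596 replicate 2 lie to the right of all others in every row.

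The first question was whether GAS5 KD changed the level of these genes. No change was detected: an unadjusted *P* under 0.05 was reached by 0 of the 77 in the comparison of siRNA210 and siRNA596 replicate 1 with the 2 NC libraries (quasi-likelihood test of edgeR). Over all 15867 genes tested, 3.3% had such a *P*, 0.876% also passed a fold change of 2, and 0% passed at an adjusted *P* of 0.05. The log2 fold changes of the 77 genes ran from -0.20 to 0.19, with 37 above and 40 below 0 and a median of -0.01, against -0.00230 over all genes. The median was 0.02 over the large subunit and -0.05 over the small subunit. Both medians changed sign with the processing: the first was -0.00288 when scaled by library size only, -0.00511 with offsets for length and GC content and -0.0162 without NC replicate 1, and the second was 0.0414 without NC replicate 2. Every 95% interval of these fold changes lay between -0.49 and 0.47 on the log2 scale, so that changes of 1.5-fold or more were outside the interval of each of the 77 genes. The smallest unadjusted *P* among them was 0.0728, that of Mrpl54, and the smallest adjusted *P* was 0.967 (edgeR, Benjamini-Hochberg over all genes).

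The spread between the libraries of a group was also described. The median absolute log2 difference was 0.121 between the 2 NC libraries and 0.0716 between siRNA210 and siRNA596 replicate 1 over the 77 genes, against 0.196 and 0.124 over all genes. The NC difference was the larger for 48 of the 77 genes (62.3%; 61.9% of all genes), a share close to that of all genes. It was largest for Mrpl3 (0.414) in the large and Mrps11 (0.301) in the small subunit. The KD libraries both lay above both NC libraries for 16 genes (20.8%; 16.5% of all genes) and both below for 13 genes (16.9%; 16.2% of all genes). These shares are close to those of all genes.

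The summed level of the large subunit was 1964 and 1991 CPM in the NC libraries, 2006 with siRNA210 and 1996 in siRNA596 replicate 1. That of the small subunit was 936 and 971 CPM in NC, 926 with siRNA210 and 946 in siRNA596 replicate 1. All 77 genes together stood at 100.04% and 100.4% of the NC mean in these KD libraries. The ratio of the large to the small subunit sum was 2.098 and 2.05 in NC, 2.17 with siRNA210 and 2.11 in siRNA596 replicate 1. On this scale both KD libraries lay just above the NC range for the large subunit, but they lay inside it with the size factors of DESeq2 (1998 and 1983 CPM against 1950 and 2009 in NC) and by library size only (2055 and 2069 against 2040 and 2095). The siRNA210 library lay just below the NC range for the small subunit under all 3 scalings.

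Among the large subunit genes with the smallest *P*, Mrpl54, a protein without a bacterial homolog, was at 55.1 and 61.8 CPM in NC, 50.04 with siRNA210 and 52.0 in siRNA596 replicate 1 (log2 fold change -0.20 ± 0.10 SE). Mrpl16, which lies near the peptidyl transferase center, was at 30.5 and 33.0 CPM in NC and 26.9 and 28.4 in KD (-0.20 ± 0.11). In both genes the KD values lay below the NC values. Mrpl10, the base of the stalk that recruits translation factors, was at 61.9 and 56.6 CPM in NC and 64.0 and 70.5 in KD (0.18 ± 0.10). Mrpl34 was at 29.9 and 27.6 CPM in NC and 34.2 and 31.3 in KD (0.19 ± 0.11), and Mrpl23, at the tunnel exit, at 21.0 and 18.5 in NC and 23.0 and 21.6 in KD (0.17 ± 0.13). The KD values of these 3 genes lay above those of NC, whereas for Mrpl14, at 79.0 and 63.1 CPM in NC and 79.7 and 78.1 in KD (0.15 ± 0.11), the groups overlapped. The adjusted *P* of each of these genes, as of those of the small subunit below, was 0.967 (edgeR, Benjamini-Hochberg).

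In the small subunit, Mrps12, which monitors codon and anticodon pairing in the decoding center, was at 22.9 and 21.8 CPM in NC and 20.5 and 19.1 in KD (log2 fold change -0.18 ± 0.12). Mrps22 was at 29.9 and 32.3 CPM in NC and 26.5 and 29.3 in KD (-0.16 ± 0.11). Mrps26 was at 57.2 and 65.7 CPM in NC and 54.7 and 57.2 in KD (-0.14 ± 0.10). Groups did not overlap for Mrps12 and Mrps22. Mrps24, the homolog of bacterial S3 at the mRNA entry, was at 42.1 and 40.2 CPM in NC and 46.0 and 44.6 in KD, so both KD libraries were above NC (0.14 ± 0.10).

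**Figure D2:**
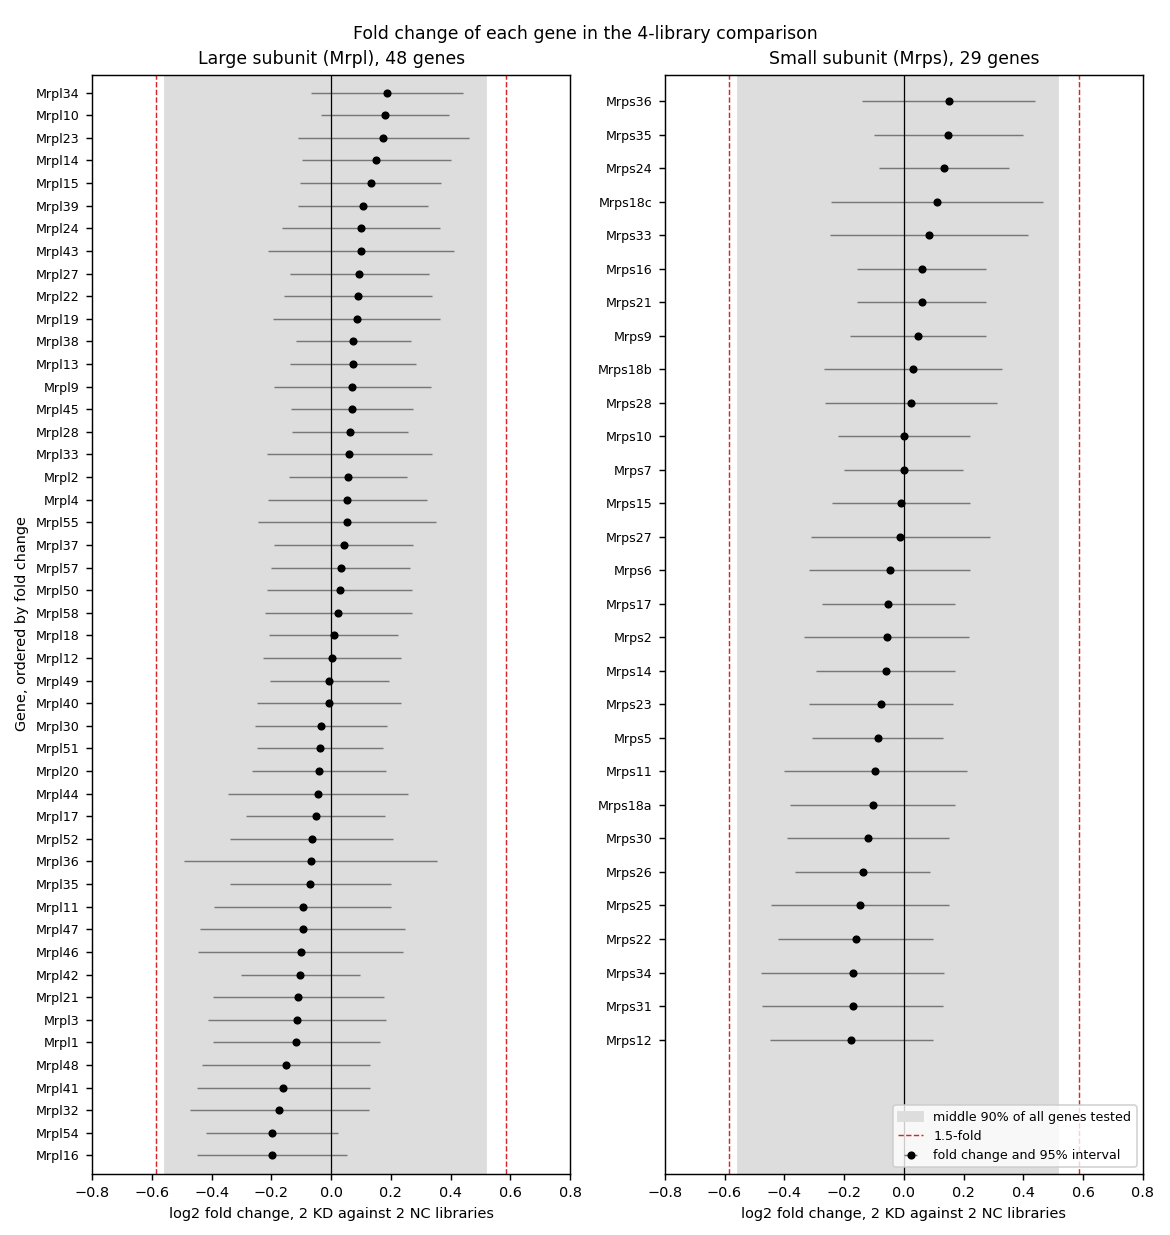
log2 fold change of each of the 77 genes (points) with its 95% interval (lines) in the comparison of 2 KD with 2 NC libraries, large (left) and small (right) subunit, ordered by fold change. Every interval crosses 0 and lies inside the dashed lines at 1.5-fold, and every point lies inside the grey band, the middle 90% of all genes tested (-0.56 to 0.52).

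None of the genes with known roles passed the threshold either. Of the stalk, Mrpl11 was at 23.3 and 28.3 CPM in NC and 25.05 and 23.4 in KD, and Mrpl12, which carries the stalk's mobile domains, was at 84.5 and 102 in NC and 94.8 and 92.7 in KD. Both genes had KD values between the NC values. At the tunnel exit, where the nascent chain leaves toward the inner membrane, the log2 fold changes were 0.09 ± 0.11 for Mrpl22, 0.10 ± 0.12 for Mrpl24, -0.04 ± 0.13 for Mrpl44, and 0.07 ± 0.09 for Mrpl45, which holds the ribosome to that membrane. Mrpl58, a release factor built into the large subunit, was at 28.1 and 27.1 CPM in NC and 27.7 and 28.4 in KD. Mrps5, near the mRNA path of the small subunit, was at 50.6 and 53.6 CPM in NC and 47.1 and 51.1 in KD.

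The symbol does not always name the subunit that holds the protein. Mrps30 and Mrps18a encode proteins that are found in the large subunit, and Mrps36 encodes a protein better known from the oxoglutarate dehydrogenase complex. By symbol, these genes count with the small subunit in all its sums, medians and ratios given here. The log2 fold changes of Mrps30, Mrps18a and Mrps36 were -0.12 ± 0.12, -0.10 ± 0.12 and 0.15 ± 0.13. The other 2 paralogs of the Mrps18 family, of which Mrps18c is the counterpart of bacterial S18, had 0.03 ± 0.13 (Mrps18b) and 0.11 ± 0.16 (Mrps18c). In level, Mrps18a (46.4 CPM per kb in NC) was above Mrps18b (17.1 ± 0.280) and Mrps18c (16.6 ± 1.08), which did not differ beyond their spread. This order held only per coding transcript, since per kb of all exons Mrps18a was at 9.46, Mrps18b at 7.70 and Mrps18c at 9.85 CPM.

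Proteins with bacterial homologs and those acquired later were also set apart. The 29 large subunit genes with homologs had a median log2 fold change of 0.05 and the 19 without had -0.01, and in the small subunit the 18 with homologs had -0.00495 and the 11 without had -0.12. None of the 4 groups held a gene past the unadjusted threshold.

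A single library represents siRNA210, and its values have no replicate check. Its log2 ratios to the NC mean ran from -0.24 to 0.25 over the 77 genes, with a median of 0.02 in the large and -0.06 in the small subunit. It was above both NC libraries for 24 genes (31.2%; 32.4% of all genes), below both for 23 (29.9%; 32.3% of all genes) and between them for 30. These shares are close to those of all genes. In siRNA596 replicate 1 the ratios ran from -0.25 to 0.25, with medians of 0.01 and -0.01. No gene of the 77 differed by 2-fold from the NC mean in either library, where 2.25% of all genes were higher and 3.21% lower by 2-fold with siRNA210, and 2.47% and 2.63% in siRNA596 replicate 1. The 2 libraries are set against the same NC libraries, so their ratios are not independent of each other.

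In the library labelled siRNA596 replicate 2, by contrast, all 77 genes were above both NC libraries and above the other KD libraries (77 of 77; 42.8% of all genes were above both NC libraries). They exceeded the NC mean by over 2-fold in 63 of 77 genes (81.8%; 17.4% of all genes). The log2 ratio to the NC mean ran from 0.33 to 2.14, with medians of 1.53 in the large and 1.46 in the small subunit, against -0.05 over all genes. The large subunit summed to 5544 CPM and the small to 2679 CPM, 280% and 281% of the NC means, so that their ratio of 2.07 lay between those of the NC libraries. The 77 genes took 0.708% of the counts of this library. This is 1 library whose Gas5 level goes against its label, and it was described here because it stood apart, so its values are given as a description.

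**Figure D3:**
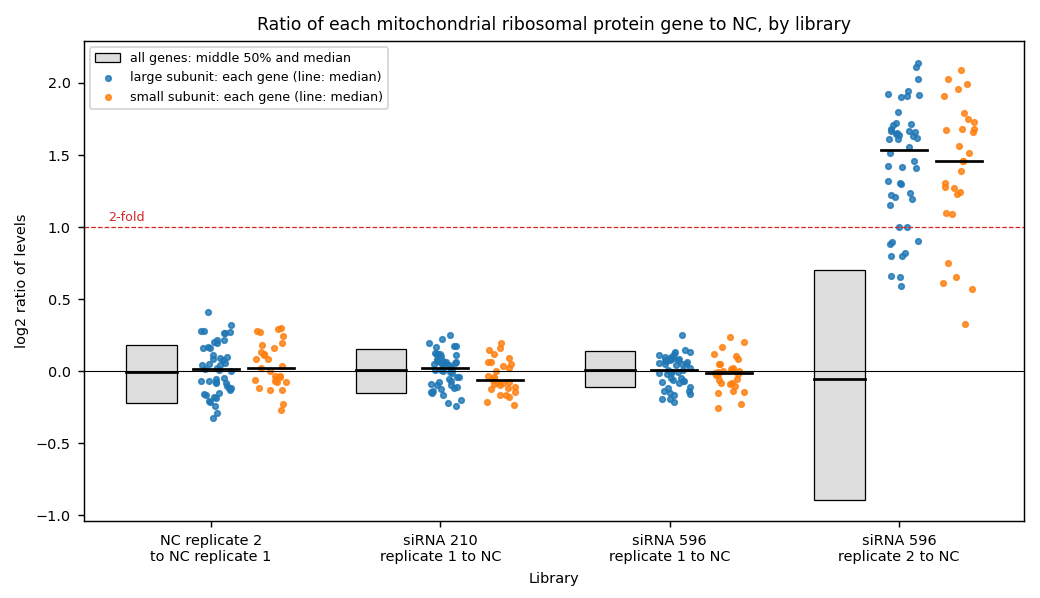
log2 ratio of each gene to NC in each library, for the large (blue) and small (orange) subunit with medians as black lines, beside the middle 50% and median of all 16142 genes (grey boxes); the first column sets NC replicate 2 against NC replicate 1. In 3 columns the genes lie between -0.32 and 0.41, and in the library labelled siRNA596 replicate 2 they lie between 0.33 and 2.14, above the dashed 2-fold line for 63 of 77.

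The highest ratios in that library were those of Mrpl11 (113 CPM, log2 ratio 2.14) and Mrpl52 (161 CPM against 39.3 and 35.5 in NC, 2.11) in the large subunit, and of Mrps6 (109 CPM against 24.2 and 27.1, 2.09) and Mrps21 (172 CPM against 42.1 and 42.2, 2.03) in the small subunit. The lowest were those of Mrpl39 (59.8 CPM against 39.4 and 39.8, 0.59) and Mrpl50 (48.1 CPM against 29.6 and 31.6, 0.65), and of Mrps2 (42.3 CPM against 31.0 and 36.7, 0.33) and Mrps18b (23.9 CPM against 15.9 and 16.3, 0.57). At the 2-fold line, Mrpl3 and Mrpl19 lay just above (1.0015 and 1.0012) and Mrpl16 just below (0.91). The paralogs of the Mrps18 family thus spread widely, with Mrps18a at 117 CPM (1.75) and Mrps18c at 36.8 CPM (1.79). Within the stalk, Mrpl12 (379 CPM, 2.03) and Mrpl11 were far above Mrpl10 (103 CPM, 0.80). Of the tunnel exit genes, Mrpl22 and Mrpl23 had 1.64 and 1.65, Mrpl45 1.22, Mrpl44 0.88 and Mrpl24 0.66. Mrps12 was at 71.4 CPM (1.67), Mrpl58 at 106 CPM (1.95) and Mrps5 at 81.9 CPM (0.65).

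The ratios in this library went with transcript length. Over the 77 genes, the rank correlation of the log2 ratio with the median annotated transcript length was -0.516 (-0.676 over the 48 large and -0.303 over the 29 small subunit genes), and with the GC content of the transcript 0.457, while over 16119 genes the correlation with length was -0.347. With the length of the median coding transcript the correlation over the 77 genes was -0.425. Genes within 1 library share its depth and RNA, and these are descriptions. The 26 shortest (418 to 717 bases) had a median ratio of 1.69 and 26 past 2-fold, the next 25 (718 to 991 bases) had 1.46 and 22, and the 26 longest (995 to 3561 bases) had 1.13 and 15. Over all genes, 41.3% of those of 57 to 588 bases were past 2-fold, and 24.7% to 26.0% between 588 and 1028.5 bases. The share was 20.7% for 1029 to 1338.5 bases and fell to 2.92% in the longest genes. At each length the members lay mostly above other genes: the median over the 1612 shortest genes, of 57 to 588 bases, was 0.65, and that over 1612 genes of 832 to 1028.5 bases was 0.34. After offsets for length and GC content the median over the 77 genes was 1.34, against 0.17 over all genes, and 62 were past 2-fold (18.5% of all genes). The part of RNA quality, length and GC content in the result was not tested further. In siRNA210 and siRNA596 replicate 1 the correlations with length were -0.158 and -0.128 over the 77 genes. Over the large subunit they were -0.0753 and 0.0900, and over the small subunit -0.279 and -0.438. The small subunit thus had a correlation of similar or larger size in these libraries, and the large subunit did not.

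**Figure D4:**
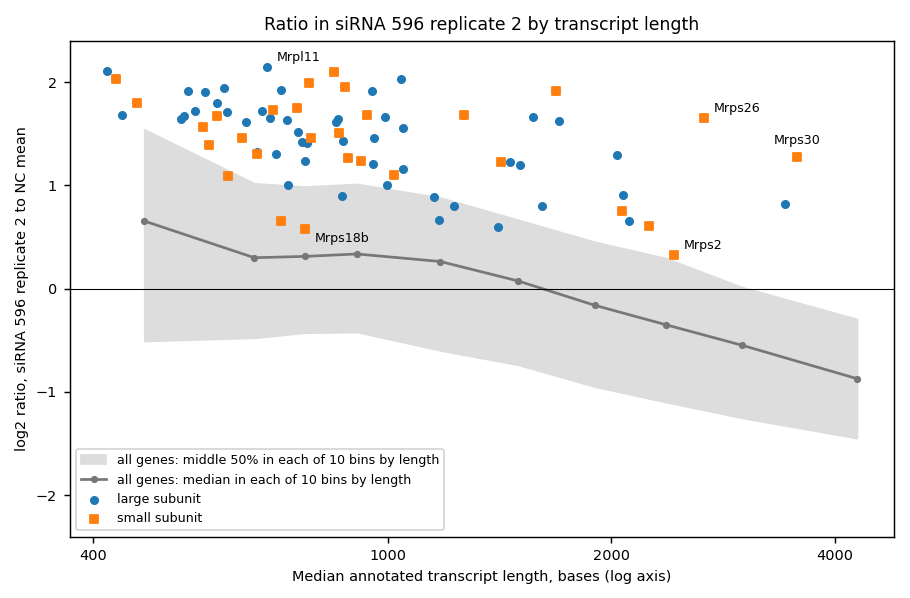
log2 ratio of each gene in the library labelled siRNA596 replicate 2 to the NC mean against its median annotated transcript length (log axis), with the median and middle 50% of all genes in 10 bins by length (grey). Both the grey line and the members fall from left to right, and most members lie above the grey band, with Mrpl11 highest at 2.14 and Mrps2 lowest at 0.33.

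Coding genes that start head to head with a member did not share these ratios as a group. Of the 29 such genes tested, 6 were past 2-fold in that library, where 17.4% of all genes were. Their median log2 ratio was 0.27, against -0.05 over all genes. Of the 33 members with such a neighbor, 26 were past 2-fold, with a median of 1.61. The neighbors ran from -0.85 (Zfp661) to 2.13 (Ndufs6, a subunit of complex I, next to Mrpl36). Tcp1, a subunit of the cytosolic chaperonin that starts beside Mrpl18, had 0.09, and Sars2, the mitochondrial seryl-tRNA synthetase beside Mrps12, had 0.75. Fau, beside Mrpl49, which encodes the cytosolic ribosomal protein eS30, had 1.73. In the 4-library comparison 0 of the 29 neighbors had an unadjusted *P* under 0.05. Genes with the ETS letters in the promoter window had a median ratio of 1.65 in the library labelled siRNA596 replicate 2 and those without 1.46. In the 4-library comparison their median log2 fold changes were 0.01 and -0.04. For the NRF1 letters, held by 8 of the 68 windows, the order in that library was the other way, with 1.02 against 1.59. Their 4-library medians were 0.07 and -0.04. For the YY1 letters the medians were 1.67 against 1.51 in that library, and -0.07 against 0.000753 with 4 libraries.

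With all 5 libraries in the comparison, every one of the 77 log2 fold changes was above 0 (76 when scaled by library size only, and 76 without NC replicate 1). Their median was 0.69 (0.71 in the large and 0.67 in the small subunit) against 0.01 over all genes, but none of the 77 had an unadjusted *P* under 0.05. Over all 16142 genes 0.372% had such a *P*, and 0% passed at an adjusted *P* of 0.05. The standard errors were 0.238 to 0.769, against 0.0848 to 0.187 in the 4-library comparison, and the 95% intervals reached from -0.90 to 2.96. The fold changes of these genes with 5 libraries thus rest on the library labelled siRNA596 replicate 2. The smallest *P* values were those of Mrpl34 (29.9 and 27.6 CPM in NC; 34.2, 31.3 and 93.9 in KD; log2 fold change 0.89 ± 0.54 SE), Mrpl23 (0.85 ± 0.53) and Mrps24 (0.88 ± 0.56), each with an adjusted *P* of 0.963 (edgeR). Groups did not overlap for 16 genes with KD higher (20.8%; 8.3% of all genes) and for 0 with KD lower (9.48% of all genes). The 16 are the same genes as in the 4-library comparison, because all 77 were higher in the added library. When siRNA596 was compared with NC by itself, 0 of the 77 genes had an unadjusted *P* under 0.05, as had 0.259% of all genes.

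The other genes of mitochondrial translation were read from lists. Of 5 mitoribosome proteins with other symbols, among them Dap3 and Chchd1, none had an unadjusted *P* under 0.05 in the 4-library comparison, with a median log2 fold change of 0.02. The same held for 0 of 14 translation factors (0.01), 0 of 24 assembly and rRNA modification factors (-0.000631), 0 of 17 mitochondrial aminoacyl-tRNA synthetases (-0.04) and 0 of 17 regulators of mitochondrial transcription and biogenesis (0.01), such as Tfam, which packages mitochondrial DNA (0.12 ± 0.09). None of 79 nuclear subunits of oxidative phosphorylation passed (0.01). Among 77 cytosolic ribosomal protein genes 1 did, Rps27a (-0.45 ± 0.19 SE, adjusted *P* = 0.967 with edgeR), and their median was 0.05. Of the 13 mitochondrially encoded mRNAs, the templates of this ribosome, 0 passed, with a median of -0.10.

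The rRNAs of this ribosome varied between the NC libraries. mt-Rnr1 was at 296 and 185 CPM in NC, 266 with siRNA210 and 280 and 345 with siRNA596 (4-library log2 fold change 0.18 ± 0.18). mt-Rnr2 was at 430 and 324 CPM in NC, 399 with siRNA210 and 430 and 293 with siRNA596 (0.14 ± 0.12). The siRNA210 values lay within the NC range, and the library labelled siRNA596 replicate 2 was the highest for mt-Rnr1 and the lowest for mt-Rnr2. Both are rRNAs read from libraries purified with oligo-dT, so their counts do not measure the whole rRNA.

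In the library labelled siRNA596 replicate 2 the lists differed in their ratios. The median log2 ratio to the NC mean was 1.81 over the 77 cytosolic ribosomal protein genes (75 past 2-fold) and 1.58 over the 79 nuclear oxidative phosphorylation genes (67 past 2-fold), beside 1.51 over the 77 mitochondrial ribosomal protein genes. It was 1.43 over the 5 mitoribosome proteins with other symbols, of which Ptcd3 alone was below 0 (-0.33). It was 0.69 over assembly factors, 0.29 over translation factors, 0.25 over aminoacyl-tRNA synthetases and 0.18 over the regulators. Median transcript lengths were 628.5 bases for cytosolic ribosomal proteins, 607 for oxidative phosphorylation and 849.5 for the members. They were 1289 to 1470 for translation factors, synthetases and regulators. Assembly factors had a median of 942 bases and the mitochondrially encoded mRNAs one of 784, and both had lower ratios than the members. The lengths depend on the measure. Per coding transcript the medians were 1708 bases for assembly factors, 784 for the mitochondrially encoded mRNAs and 1226 for the members. The part of length in the order of the lists was not tested. The 13 mitochondrially encoded mRNAs had a median of 0.60 and ran from -2.97 to 2.08, with 1 above and 4 below by 2-fold. Among them, mt-Atp8 had 0 counts in this library and 3 to 23 in the others. Its ratio therefore rests on the prior count of 1 and does not measure a change.

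**Figure D5:**
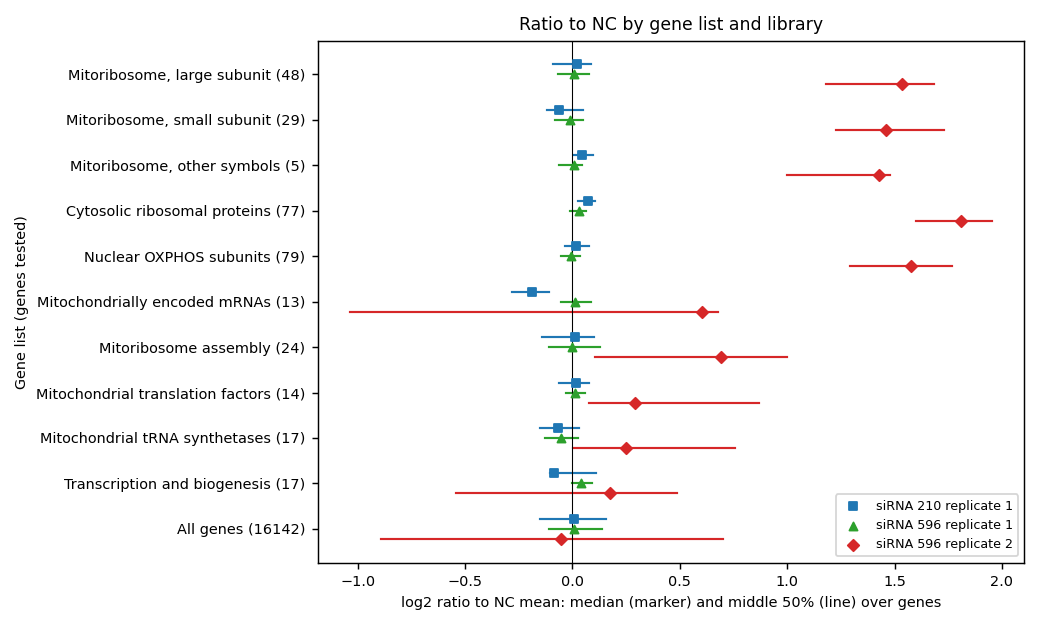
Median (marker) and middle 50% (line) of the log2 ratio to the NC mean over the genes of each list, for the siRNA210 library (squares), siRNA596 replicate 1 (triangles) and the library labelled siRNA596 replicate 2 (diamonds). Squares and triangles stay between -0.19 and 0.07, and the diamonds reach 1.43 to 1.81 for the ribosomal and oxidative phosphorylation lists.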

How the data were processed

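RNA-Seq counts of 5 HT22 libraries were used. The counts deposited by the authors are whole reads per gene, made with Trimmomatic, HISAT2 2.1.0 on GRCm38, SAMtools 1.7 and featureCounts 2.0.1 on the Ensembl annotation, without normalization. The authors' deposited table of KD against NC was made with DESeq2 1.26.0. From it only the mean normalized signal deposited by the authors was used, to find which libraries it covers, and its fold changes and *P*-values were not used. The strand setting and the handling of multi-mapping reads are not given in the sources used here.

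Symbols, lengths and overlaps came from the GENCODE annotation of GRCm38, with names for 99.5% of the 55487 identifiers. Tests used edgeR 4.0.16 in R 4.3.3 (TMM, filterByExpr, quasi-likelihood) over all genes, with Benjamini-Hochberg adjustment. Intervals are 95%. Log2 ratios of single libraries to the NC mean used a prior count of 1. Changed means an unadjusted *P* under 0.05 unless an adjusted *P* is named. Totals of 30660265 to 36492134 counts gave at least 220 counts per member and library, and the number of libraries limits the precision.

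The genes and lists were chosen with earlier results of these data known. The members named are those with the 4 highest and 3 lowest levels in each subunit, the 5 smallest *P* in each direction with 4 libraries and the 3 smallest with 5, the 2 highest and 2 lowest ratios in each subunit in the library labelled siRNA596 replicate 2, and those with stated roles. Mrpl3, Mrps11, Mrpl18, Mrpl36, Mrpl33, Mrpl46, Mrpl49, Mrpl35, Mrps7 and Mrps33 and the genes beside members were named after their values were seen, as were the promoter motifs and Ptcd3. Alternatives were DESeq2 1.42.0 as test or for size factors, library size only, other filters, offsets for length and GC content, each library left out and the replicate block. The fits were tested on simulated data. Figures were drawn with matplotlib.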

Additional observations from a re-analysis of the deposited data

Results flagged for a closer look

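Mrpl44, which encodes a tunnel exit protein, lay on opposite sides of both NC libraries with the 2 siRNAs and did not pass the test: its log2 ratio to the NC mean was -0.14 with siRNA210, but 0.0537 in the first siRNA596 library and 0.88 in the library labelled siRNA596 replicate 2. It was at 17.7 and 17.8 CPM in NC, 16.1 with siRNA210 and 18.4 and 32.8 with siRNA596. The difference was not tested, since siRNA210 has 1 library. Of the 77 genes, 4 lay so (Mrpl35, Mrps7 and Mrps33 beside Mrpl44; 5.19%), as did 4.63% of all genes, and this share is close to that of all genes.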

How the results depend on the processing

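The finding of 0 members with an unadjusted *P* under 0.05 held in the 4-library comparison with the DESeq2 test, with the size factors of DESeq2, by library size only and with both other filters, and in the 5-library comparison under every alternative. With offsets for length and GC content 1 member passed (Mrpl54, lower; 1.30%, against 3.24% of all genes), and leaving out a library in turn gave 0 to 8, with 8 (10.4%) without NC replicate 1, where 16.5% of all genes passed, and 2 (2.60%) without NC replicate 2, where 2.52% passed, so the count depends on which NC library is used. The cause was not tested. No member passed at an adjusted *P* of 0.05 in those fits. Of 798 alternative values of named members 745 kept their sign and side, 46 changed sign without passing, 7 newly passed and 0 reversed. The large subunit's median log2 fold change was -0.00288 by library size only, -0.00511 with offsets and -0.0162 to 0.0181 with libraries left out, and the small subunit's -0.0677 to 0.0414. Over all genes, 924 (4 libraries) and 175 (5 libraries) had such a *P* without the filter on low counts, and leaving out libraries gave 170 to 2776 and 33 to 523.

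Library size alone moved the median of all genes in the library labelled siRNA596 replicate 2 to -0.33 and that of the members to 1.23, and offsets moved the latter to 1.34. The members exceeded all genes by 1.56 under both library size only and TMM. By library size only 50 of 77 were past 2-fold (11.3% of all genes), rather than 63 (17.4% of all genes). With library size only, the large subunit summed to 2040 and 2095 CPM in NC, 2055 with siRNA210, and 2069 and 4776 with siRNA596, and the small subunit to 972 and 1021 CPM in NC and 980 and 2308 with siRNA596. The size factors of DESeq2 gave 5595 and 2704 CPM in the library labelled siRNA596 replicate 2. The members' median in the siRNA210 library was -0.0437 to 0.0144 when an NC library was left out.

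Replicate numbers are shared by siRNA596 and NC. The differences between replicates 1 and 2 of both groups had a correlation of r = 0.0889 across genes. The siRNA596 difference holds the library that stood apart, so this value cannot decide whether the libraries were paired. With the replicate block, 3 members (3.90%) had an unadjusted *P* under 0.05, against 2.70% of all genes, and 11 (14.3%) with the block and offsets, against 3.52%, where 0 had one without the block. Leaving out a library of that comparison gave 0 to 76, with 76 (98.7%) for the library labelled siRNA596 replicate 2 alone against NC, whose spread is then taken from NC and where 56.1% of all genes passed. The 95% intervals with 4 libraries reached from -0.49 to 0.47 on the log2 scale, and changes smaller than a gene's interval were not detectable with this number of libraries.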
